A study of Mus musculus with 6 samples.

Results

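The genes that load peptides onto MHC class I molecules were followed in mouse macrophages treated with an inhibitor of KAT8, a lysine acetyltransferase also called MOF that acts on histone H4. The set was chosen by name and holds 10 genes of the 34745 in the count table: the heavy chain genes H2-K1 and H2-D1, the light chain gene B2m, the peptide transporter and loading genes Tap1, Tap2 and Tapbp, the immunoproteasome genes Psmb8, Psmb9 and Psmb10, and the regulator Nlrc5. All 10 were matched by Ensembl identifier, and all 10 passed the filter on low counts. Sequencing of mRNA compared 3 libraries from cells pretreated with DMSO, the solvent control, with 3 from cells pretreated with the KAT8 inhibitor. Both groups were wild-type (WT) primary bone marrow-derived macrophages (BMDM), grown with M-CSF at 20 ng/ml. Both had also received R848, an agonist of Toll-like receptor 7, at 100 ng/ml for 6 h. The labels name neither the compound, its dose and the length of pretreatment nor the mouse strain, age or sex, and they do not say whether replicates were separate animals or cultures. The p-values therefore refer to variation among these libraries only, and that variation may be technical.

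MHC class I molecules display peptides from inside the cell to CD8 T cells. Proteins are cut by the proteasome, and in cells under interferon or inflammatory signals its standard catalytic subunits are exchanged for the immunoproteasome subunits, which leave peptide ends that suit class I molecules. The peptides are pumped into the endoplasmic reticulum by the TAP transporter, tapasin (Tapbp) holds empty class I molecules beside it, and the loaded heavy chain leaves together with beta-2-microglobulin. NLRC5 is a transcriptional activator that works with RFX, CREB/ATF and NF-Y factors at class I promoters, and IRF and NF-kB sites lie close by.

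Library totals ranged from 18441352 to 25089320 counts. Levels are CPM, read counts relative to the TMM-scaled library size, and fold changes are inhibitor over DMSO with adjusted p from edgeR's quasi-likelihood test (Benjamini-Hochberg over 13815 tested genes, called under 0.05). Of all tested genes 26.5% were called lower and 24.9% higher, and groups without overlap made up 30.3% (all inhibitor libraries lower) and 30.3% (all higher). The groups thus differed at a large share of genes, and the counts given for the set are to be read against these shares. Scaling by library totals alone moved the centre of all log2 fold changes, their median, from 0.01 to 0.12 and the calls from 3446 higher and 3667 lower to 4888 higher and 2842 lower. Kat8 mRNA was at 15.5, 16.9 and 15.8 CPM under DMSO and 21.1, 20.8 and 20.4 CPM with the inhibitor, which acts on the protein, so its mRNA does not measure inhibition.

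Of the 10 genes 7 fell with the inhibitor, 0 rose and 3 did not pass. The 7 were the 3 immunoproteasome subunits, Tapbp, Nlrc5, B2m and H2-K1. Those that did not pass were Tap1, Tap2 and H2-D1. With DESeq2 7 of the 10 were lower and 0 higher, beside 3454 lower and 3008 higher of 19809 genes. At an unadjusted p under 0.05 with edgeR 8 of the 10 were lower and 0 higher. The share of all tested genes at that unadjusted threshold was not computed. The median of the 10 was -0.40 on the log2 scale, beside a median of 0.01 over all tested genes. For 8 of the 10 all inhibitor libraries were below all DMSO libraries, and the members ranged from -0.81 (Psmb10) to -0.04 (H2-D1) on the log2 scale. In bulk RNA a lower level can come from fewer cells of a type or from less RNA per cell, which cannot be told apart.

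**Figure D1:**
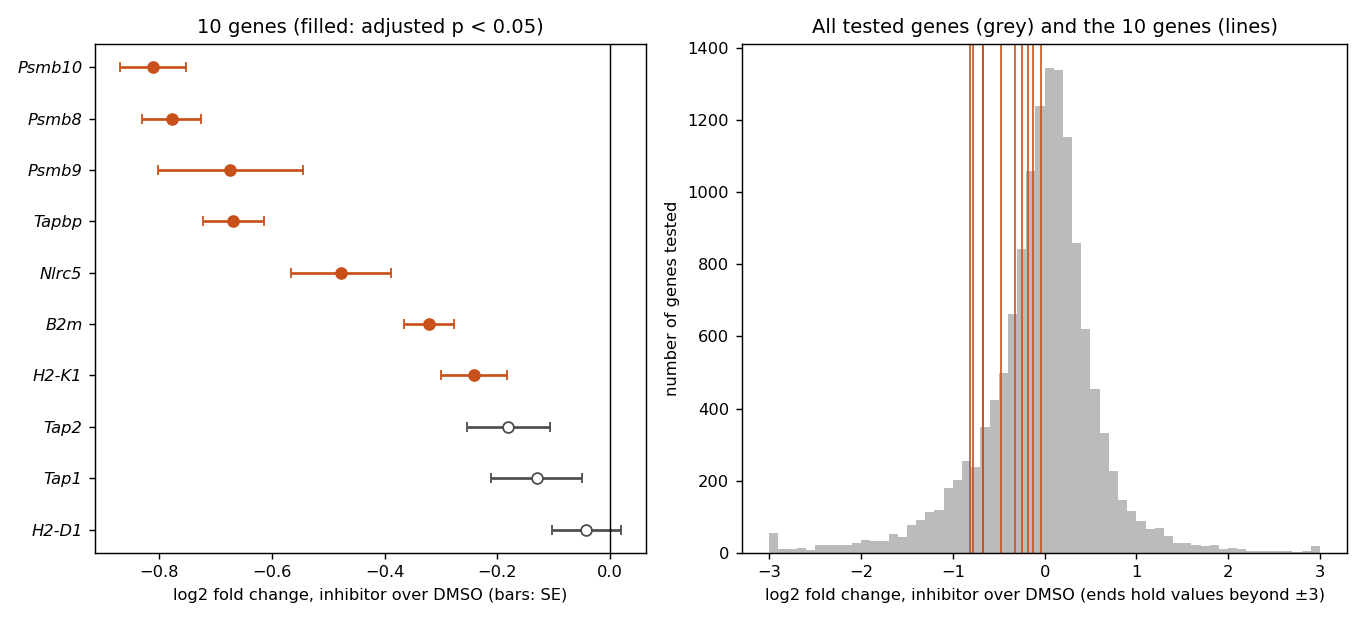
Left, log2 fold change of the 10 genes, inhibitor over DMSO, with its standard error (SE); filled points passed adjusted p under 0.05. Right, the number of tested genes (grey) by log2 fold change, with the 10 genes as lines; all 10 lie at or below -0.04 (H2-D1 at 0.07 with library totals) and the 7 that passed between -0.81 and -0.24.

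Nlrc5 (ENSMUSG00000074151, chromosome 8, 94434356 to 94527272, plus strand, mm10) encodes the activator of the class I genes. Its level was 46.5, 40.8 and 36.3 CPM in the DMSO libraries and 29.20, 29.97 and 29.51 CPM in the inhibitor libraries. The inhibitor libraries lay close together and all below the DMSO libraries, which were more spread out. The mean fell 1.39-fold, from 41.2 ± 5.08 to 29.6 ± 0.385 CPM (n = 3, SD; edgeR log2 fold change -0.48, SE 0.089, adjusted p = 0.00248).

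Promoters of class I heavy and light chain genes are known to carry CREB/ATF and NF-Y sites, with IRF and NF-kB sites close by. The RFX site was not searched for, and a link between such sites and the counts was not tested. A stretch of 190 bases ending 11 bases before the start site is shown for H2-K1 and B2m, a heavy and a light chain gene that both fell (RefSeq, GRCm38.p6, 5′ to 3′ along each gene's strand). Capitals mark matches, on either strand, to 4 motifs: an interferon response element (GAAA, any 2 bases, GAAA), a kappaB site (GGG, any 3 bases, T, any base, CC), TGACG, which is the core of the CREB/ATF site, and CCAAT, the NF-Y box, here read as ATTGG. The kappaB letters of H2-K1 match on both strands in overlapping positions.
H2-K1, chr17:34000358-34000547, minus strand: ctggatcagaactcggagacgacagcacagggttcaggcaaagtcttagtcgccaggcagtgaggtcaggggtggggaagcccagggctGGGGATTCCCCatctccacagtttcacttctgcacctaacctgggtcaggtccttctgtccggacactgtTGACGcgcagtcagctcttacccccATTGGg
B2m, chr2:122147487-122147676, plus strand: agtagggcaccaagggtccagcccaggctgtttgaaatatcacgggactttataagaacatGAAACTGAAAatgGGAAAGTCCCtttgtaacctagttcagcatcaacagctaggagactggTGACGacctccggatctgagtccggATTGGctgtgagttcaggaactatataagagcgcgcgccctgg
Both stretches read in the order kappaB match, TGACG and ATTGG towards the start site. B2m has in addition a match to the interferon motif as written here, a strict pattern that sites with other letters do not meet. In the 250 bases before the start, the interferon motif was found in 2.98% of 32851 mouse promoters, the kappaB motif in 14.9%, TGACG in 17.8% and CCAAT in 33.8%. These are matches of letters and not evidence of binding, and a missing match does not show that a site is absent. The same window of Tapbp held only CCAAT matches, and those of Psmb8 and Psmb10 held none of the 4 motifs. These windows precede the RefSeq starts. GENCODE places the start of each of these genes further upstream, within the window for Psmb10 and before it for Tapbp and Psmb8, and sequence there was not searched.

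H2-K1 and H2-D1 encode the classical heavy chains that bind the peptide, and they gave different calls. H2-K1 (ENSMUSG00000061232, chromosome 17, 33996017 to 34000347, minus strand) was at 1103, 1257 and 1099 CPM under DMSO and at 985, 990 and 951 CPM with the inhibitor. All inhibitor libraries were below all DMSO libraries, and the change was small: a 1.18-fold fall from 1153 ± 90.3 to 975 ± 21.3 CPM (n = 3, SD; edgeR log2 fold change -0.24, SE 0.059, adjusted p = 0.00934). It did not pass when libraries were scaled by their totals (-0.13, adjusted p = 0.0578).

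H2-D1 (ENSMUSG00000073411, chromosome 17, 35262730 to 35267499, plus strand) was the most abundant of the 10 in CPM, at 3160, 3520 and 3647 CPM under DMSO and 3383, 3418 and 3231 CPM with the inhibitor. The groups overlapped. Its log2 fold change was -0.04 (SE 0.061, 95% interval -0.18 to 0.10, adjusted p = 0.596 by edgeR), and the sign turned under scaling by library totals (0.07).

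The same kappaB match stands in both heavy chain promoters, as a comparison of the 30 bases around it shows; capitals here mark only matches to the kappaB and interferon motifs.
H2-K1, chr17:34000439-34000468, minus strand: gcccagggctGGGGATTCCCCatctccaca
H2-D1, chr17:35262913-35262942, plus strand: gcccagggctGGGGATTCCCCatctcctca
B2m, chr2:122147544-122147573, plus strand: acatGAAACTGAAAatgGGAAAGTCCCttt
Lined up on that match, 166 of 190 bases (87.4%) of the H2-K1 and H2-D1 promoters were identical, and in both TGACG followed 70 bases and ATTGG 95 bases after the first base of the match. The promoter with a called fall and the one without a call, each taken before a RefSeq start, therefore shared this arrangement. GENCODE places the start of H2-D1 at 35262730, upstream of the window used. The bearing of this arrangement on the calls was not tested. The ratio of H2-K1 to H2-D1, given below, could not pass in a test of 3 libraries against 3. Of all stretches of 50 bases in the transcripts of H2-K1, 9.63% occur also in transcripts of other genes, and 12.8% for H2-D1, among them each other and H2-Q genes. How reads that match several genes were counted is not given in the sources used here, nor is the strain, whose class I alleles may differ from the reference.

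B2m (ENSMUSG00000060802, chromosome 2, 122147686 to 122153083, plus strand) encodes beta-2-microglobulin, the light chain that all these heavy chains need. It was at 1475, 1586 and 1584 CPM under DMSO and 1244, 1251 and 1223 CPM with the inhibitor. The inhibitor libraries agreed closely with one another and lay below every DMSO library. The fall was 1.25-fold, from 1548 ± 63.9 to 1240 ± 14.4 CPM (n = 3, SD; edgeR log2 fold change -0.32, SE 0.044, adjusted p = 0.000497). None of its 50-base stretches occurs in another gene's transcripts (0%).

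The ratio of H2-D1 to B2m counts within a library, which no scaling can change, was 2.14, 2.22 and 2.30 under DMSO and 2.72, 2.73 and 2.64 with the inhibitor. Every inhibitor library was higher, by 1.215-fold on average (difference 0.28 on the log2 scale). The ratio of H2-K1 to B2m overlapped between groups (0.748, 0.793 and 0.694 against 0.791, 0.791 and 0.777). H2-K1 per H2-D1 was 0.349, 0.357 and 0.301 under DMSO and 0.291, 0.290 and 0.294 with the inhibitor, lower in all 3 but close to DMSO replicate 3. A two-sided exact permutation test of 3 libraries against 3 cannot go below p = 0.1; it gave that value for H2-D1 to B2m and for H2-K1 to H2-D1 and p = 0.4 for H2-K1 to B2m, and 0.175, 0.175 and 0.467 after adjustment over the 7 ratios planned, so none of these differences passed.

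Tap1 and Tap2 encode the 2 subunits of the TAP transporter. Tap1 (ENSMUSG00000037321, chromosome 17, 34187553 to 34197225, plus strand) was at 71.7, 69.6 and 58.4 CPM under DMSO and 60.2, 58.5 and 63.7 CPM with the inhibitor. DMSO replicate 3 was the lowest of all 6 libraries, the groups overlapped, and Tap1 did not pass (log2 fold change -0.13, SE 0.081, 95% interval -0.32 to 0.06, adjusted p = 0.212 by edgeR). Without DMSO replicate 3 it passed (-0.22, adjusted p = 0.0208, range over all settings 0.0208 to 0.85), while it was -0.08 without DMSO replicate 1 and -0.02 with library totals.

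Tap2 (ENSMUSG00000024339, chromosome 17, 34203527 to 34216321, plus strand) was at 135, 151 and 144 CPM under DMSO and at 133, 113 and 133 CPM with the inhibitor. All inhibitor libraries were lower, some of them only just, and the gene did not pass (log2 fold change -0.18, SE 0.074, 95% interval -0.35 to -0.01, adjusted p = 0.0723 by edgeR). Without DMSO replicate 1 it passed (-0.23, adjusted p = 0.0444, range over all settings 0.0444 to 0.431), while it was -0.10 without inhibitor replicate 2 and -0.07 with library totals. Within a library, Tap1 per Tap2 was 0.532, 0.462 and 0.406 under DMSO and 0.452, 0.519 and 0.480 with the inhibitor, with overlapping groups (exact permutation p = 0.7, adjusted 0.7).

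Tapbp, the gene of tapasin (ENSMUSG00000024308, chromosome 17, 33915899 to 33929292, plus strand), fell with the inhibitor. Its level was 756, 812 and 785 CPM under DMSO and 513, 459 and 509 CPM with the inhibitor. All inhibitor libraries were well below all DMSO libraries. The fall was 1.59-fold, from 785 ± 28.03 to 494 ± 29.7 CPM (n = 3, SD; edgeR log2 fold change -0.67, SE 0.054, adjusted p = 2.75e-05). Its exons share 149 bases with Zbtb22 on the same strand and 904 (24.9% of its exon bases) with the antisense gene Gm19412, which had between 2 and 20 counts a library.

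**Figure D2:**
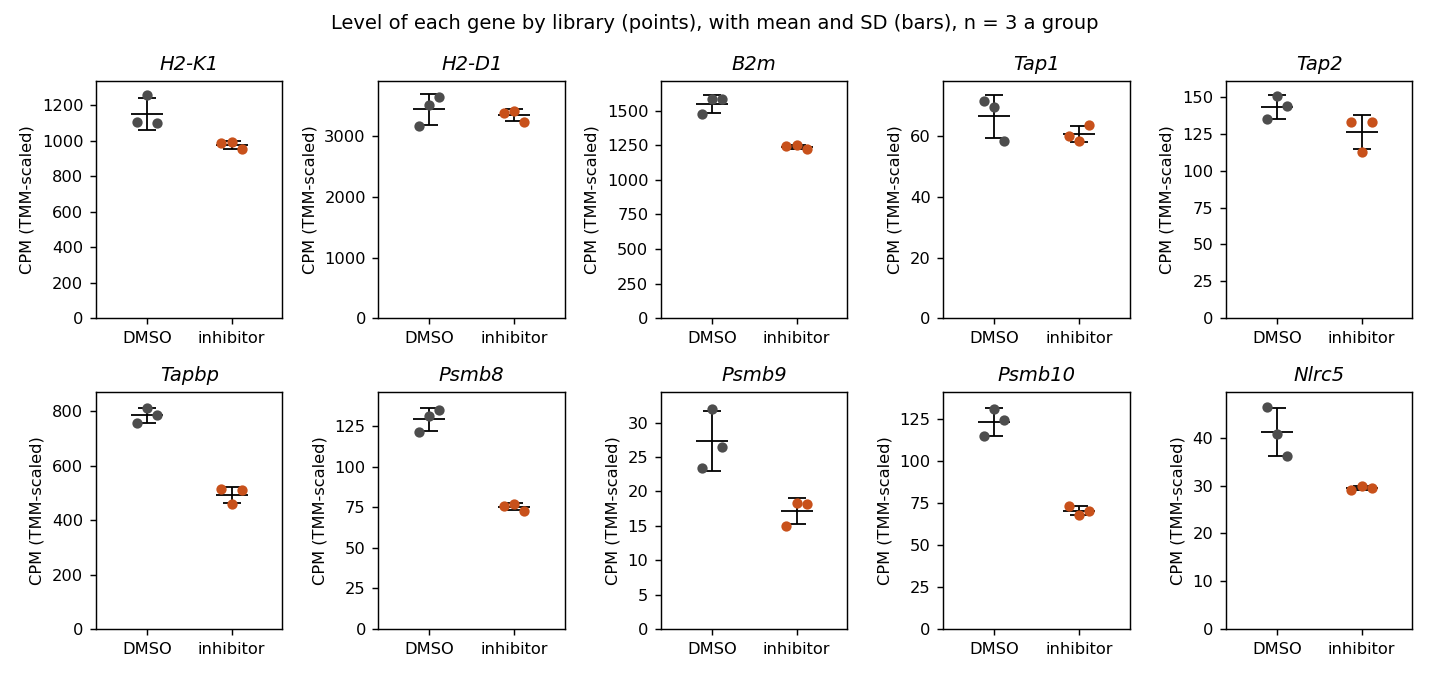
TMM-scaled CPM (vertical axes, from 0) of the 10 genes in each library (points) with the mean and SD of each group of 3 (bars). For Psmb8, Psmb10 and Tapbp the inhibitor libraries sit well below the DMSO libraries, while those of H2-D1 and Tap1 overlap.

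All 3 immunoproteasome subunits fell. Psmb10 encodes the trypsin-like subunit (ENSMUSG00000031897, chromosome 8, 105935735 to 105938444, minus strand) and was at 114, 131 and 124 CPM under DMSO and 72.9, 67.5 and 70.1 CPM with the inhibitor. Psmb8, the chymotrypsin-like subunit (ENSMUSG00000024338, chromosome 17, 34197721 to 34201454, plus strand), was at 121, 131 and 135 CPM and at 76.1, 77.2 and 72.9 CPM in the same order. Psmb9 (ENSMUSG00000096727, chromosome 17, 34181987 to 34187764, minus strand), which takes the place of the caspase-like subunit, was the least abundant and the most variable, at 23.4, 32.0 and 26.5 CPM against 14.9, 18.3 and 18.2 CPM. In all 3 genes every inhibitor library was below every DMSO library.

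Psmb10 fell 1.75-fold, from 123 ± 8.09 to 70.1 ± 2.70 CPM (n = 3, SD; edgeR log2 fold change -0.81, SE 0.059, adjusted p = 1.46e-05). Psmb8 fell 1.71-fold, from 129 ± 6.97 to 75.4 ± 2.22 CPM (-0.78, SE 0.052, adjusted p = 1.01e-05). Psmb9 fell 1.596-fold, from 27.3 ± 4.37 to 17.1 ± 1.90 CPM, with the widest error (-0.67, SE 0.129, 95% interval -0.97 to -0.38, adjusted p = 0.00284). The intervals of the 3 overlap, so no order among these subunits can be read from them. Exons of Psmb8 share 498 bases with the antisense gene Gm20496, which was at 0 counts in all 6 libraries.

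Each immunoproteasome subunit replaces one standard catalytic subunit, and of these standard subunits 2 of 3 fell. Psmb7, the standard partner of Psmb10, was at 111, 125 and 126 CPM under DMSO and 120, 117 and 115 CPM with the inhibitor and did not pass (log2 fold change -0.04, SE 0.056, 95% interval -0.17 to 0.09, adjusted p = 0.586 by edgeR; 0.07 with library totals). Psmb5, the partner of Psmb8, fell 1.26-fold (log2 fold change -0.33, SE 0.067, adjusted p = 0.00362). Psmb6, the partner of Psmb9, fell 1.44-fold, from 325 ± 30.3 to 226 ± 14.6 CPM (-0.52, SE 0.076, adjusted p = 0.000642).

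Within each library, Psmb10 per Psmb7 was 1.027, 1.045 and 0.982 under DMSO and 0.605, 0.575 and 0.607 with the inhibitor, 1.71-fold lower. Psmb8 per Psmb5 was 1.23, 1.14 and 1.16 under DMSO and 0.873, 0.853 and 0.860 with the inhibitor, 1.36-fold lower. The groups did not overlap for either pair, and the exact permutation test gave its smallest possible value for both (p = 0.1, adjusted 0.175). Psmb9 per Psmb6 overlapped, at 0.0801, 0.0910 and 0.0804 against 0.0645, 0.0876 and 0.0770 (exact permutation p = 0.4, adjusted 0.467). Of the 50-base stretches of Psmb5, 54.1% occur in other genes' transcripts, mostly of the pseudogene Gm3375, and Psmb7 shares 11.8% of its exon bases with Nek6 on the opposite strand.

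**Figure D3:**
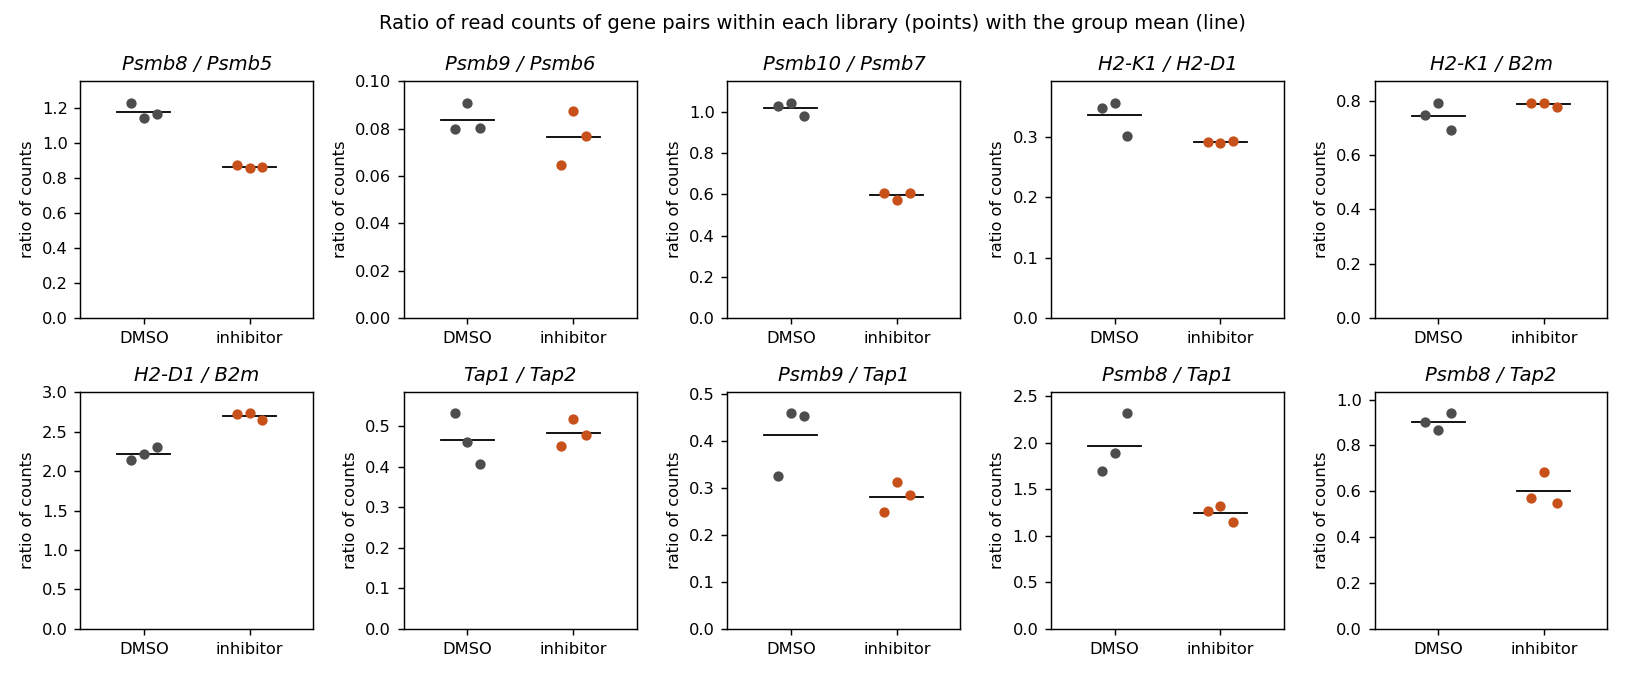
Ratio of read counts of gene pairs (vertical axes, from 0) in each library (points), with the mean of each group of 3 (lines). Psmb10 per Psmb7 is near 1 in the DMSO libraries (0.982 to 1.045) and 0.575 to 0.607 in the inhibitor libraries, whereas Tap1 per Tap2 overlaps.

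Psmb9, Tap1, Psmb8 and Tap2 lie side by side in the class II region of the MHC on chromosome 17, and calls alternated along this block. Psmb9 and Tap1 are read in opposite directions from start sites that RefSeq places with 225 bases between them (chromosome 17, 34187331 to 34187555), and a longer Psmb9 transcript in GENCODE runs across this stretch and shares 212 exon bases with Tap1. Psmb9 fell and Tap1 did not pass, Psmb8 fell and Tap2 did not pass. The region between the divergent starts was 61.3% G and C and held 2 matches to the kappaB motif, a TGACG and a CCAAT. The 30 bases around the match nearest to Tap1 are shown, because both genes start from this region, with the match in capitals.
Tap1, chr17:34187464-34187493, plus strand: gacaggtgacgacagaGGGTCCTGCCctca
The interferon motif had no match in this region.

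Ratios between these neighbours were added after their values had been seen. Psmb9 per Tap1 was 0.326, 0.460 and 0.454 under DMSO and 0.248, 0.313 and 0.285 with the inhibitor. Psmb8 per Tap1 was 1.69, 1.88 and 2.31 against 1.26, 1.32 and 1.14. Psmb8 per Tap2 was 0.902, 0.869 and 0.940 against 0.571, 0.684 and 0.548. In these 3 ratios every inhibitor library was lower than every DMSO library, by 1.45-fold, 1.57-fold and 1.51-fold on average. Each exact permutation p was 0.1, the smallest possible, and 0.143 adjusted over all 10 ratios. With 3 libraries a group no ratio could pass, so the test does not decide whether neighbours differed. Reads from the shared exon bases of Psmb9 and Tap1 cannot be told apart if strand was not used in counting.

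**Figure D4:**
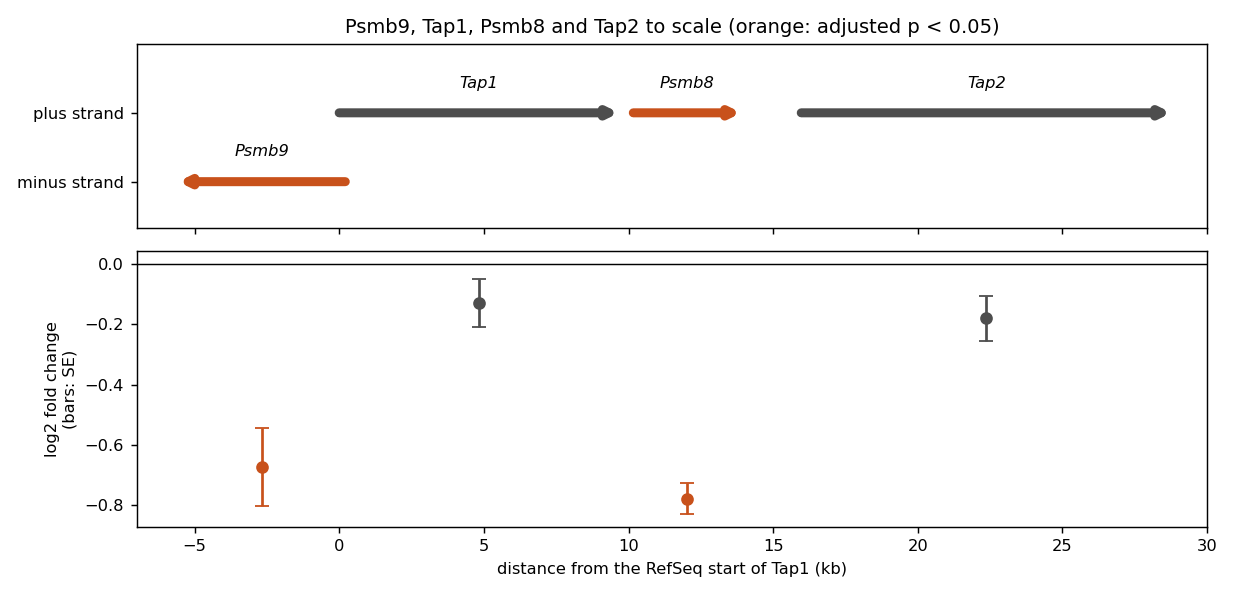
Top, Psmb9, Tap1, Psmb8 and Tap2 to scale by strand, with distance from the RefSeq start of Tap1 in kb. Bottom, the log2 fold change of each with its SE; Psmb9 and Psmb8 (-0.67 and -0.78) passed and Tap1 and Tap2 (-0.13 and -0.18) did not.

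Levels were also put per kb of exon, which compares genes only roughly. The length counts every exon base of any annotated transcript (860 for B2m, 3381 for Psmb8 and 3660 for Psmb9). It may exceed that of the mRNA present, so the order depends on the annotation. By this measure B2m was the highest at 1801 CPM per kb with DMSO. It was followed by H2-D1 (1335), H2-K1 (392), Tapbp (216) and Psmb10 (72.2). Psmb8 (38.2) and Tap2 (37.8) were not separated beyond their spread. Tap1 (12.2), Psmb9 (7.46) and Nlrc5 (4.85) came last, and all other neighbours in this order had values that did not overlap. With the inhibitor the order was the same except that Tap2 (33.4) stood above Psmb8 (22.3), with no overlap.

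Across the 6 libraries the members differed in how closely they followed the mean of the others. Pearson's r of log2 CPM with that mean was 0.992 for Psmb10, 0.984 for Tapbp, 0.980 for B2m and 0.973 for Psmb8, but 0.524 for Tap1 and 0.308 for H2-D1. These points share the division into groups, so the values mainly describe how sharply each gene separated them. By the same measure the genes outside the set whose profile was most like its mean, among 10463 with at least 5 CPM, were Gbp5 (0.9997), which encodes a guanylate-binding protein, G3bp1 (0.9997), a stress granule protein, and Cebpd (0.9993), a transcription factor. An r over 0.9 was reached by 2243 genes.

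In the lists of other class I pathway genes some fell and some rose, and these counts too stand beside the 26.5% lower and 24.9% higher of all tested genes. Of 7 for proteasome activators and assembly 3 fell and 2 rose (median log2 fold change 0.08). The fallers included both subunits of PA28, the interferon-inducible activator that pairs with the immunoproteasome. Psme2 fell 1.79-fold, from 82.0, 78.2 and 87.3 CPM to 49.1, 42.6 and 46.8 CPM (log2 fold change -0.84, SE 0.068, adjusted p = 2.68e-05 by edgeR), and Psme1 fell 1.36-fold (-0.44, SE 0.051). The activators of the other kinds rose: Psme4, the gene of PA200, by 0.33 (SE 0.045) and Psme3, the gene of the nuclear activator PA28 gamma, by 0.27 (SE 0.043) on the log2 scale. Psme3 was named after its value was seen.

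Of 12 other loading and peptide trimming genes 4 fell and 3 rose (median -0.08), shares near those of all tested genes. Erap1, the aminopeptidase that trims peptides in the endoplasmic reticulum, fell 1.28-fold from 158 ± 4.96 to 123 ± 3.43 CPM (SD, n = 3), with 11.5% of its exon bases shared with Cast on the opposite strand. Calreticulin (Calr), a chaperone of the loading complex, fell by 0.25 (SE 0.038) on the log2 scale, and Sec61a1, a channel subunit of the endoplasmic reticulum, by 0.40 (SE 0.039). Pdia3, whose product ERp57 is bound to tapasin, did not pass (-0.09, SE 0.046, 95% interval -0.19 to 0.02, adjusted p = 0.153 by edgeR). Blmh, a cytosolic peptidase, rose 1.53-fold from 52.9 ± 5.18 to 81.0 ± 1.86 CPM. Without inhibitor replicate 1 only 1 of these genes rose, and with library totals 5 did.

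Heavy chain genes other than H2-K1 and H2-D1 were split. Of 17 on the list 13 passed the filter on low counts, and of these 6 rose and 3 fell (median 0.15). H2-M2, a nonclassical heavy chain gene, fell 4.63-fold, from 191, 199 and 203 CPM to 45.3, 39.9 and 42.7 CPM (log2 fold change -2.21, SE 0.057, adjusted p = 2.01e-07 by edgeR), which was further than any of the 10 genes. H2-T24 fell 2.09-fold, from 24.1 ± 1.104 to 11.5 ± 0.180 CPM. H2-M3, which presents N-formylated peptides, rose 1.38-fold, and H2-Q4 and H2-Q6, named after their values were seen, rose by 0.27 (SE 0.053) and 0.41 (SE 0.068) on the log2 scale. Of the 50-base stretches of H2-Q4 and H2-Q6, 36.4% and 35% occur in transcripts of other genes, so their counts depend on how shared reads were treated. H2-M2, H2-T24 and H2-M3 were not searched for such stretches. Without DMSO replicate 1, 5 genes of this list fell.

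**Figure D5:**
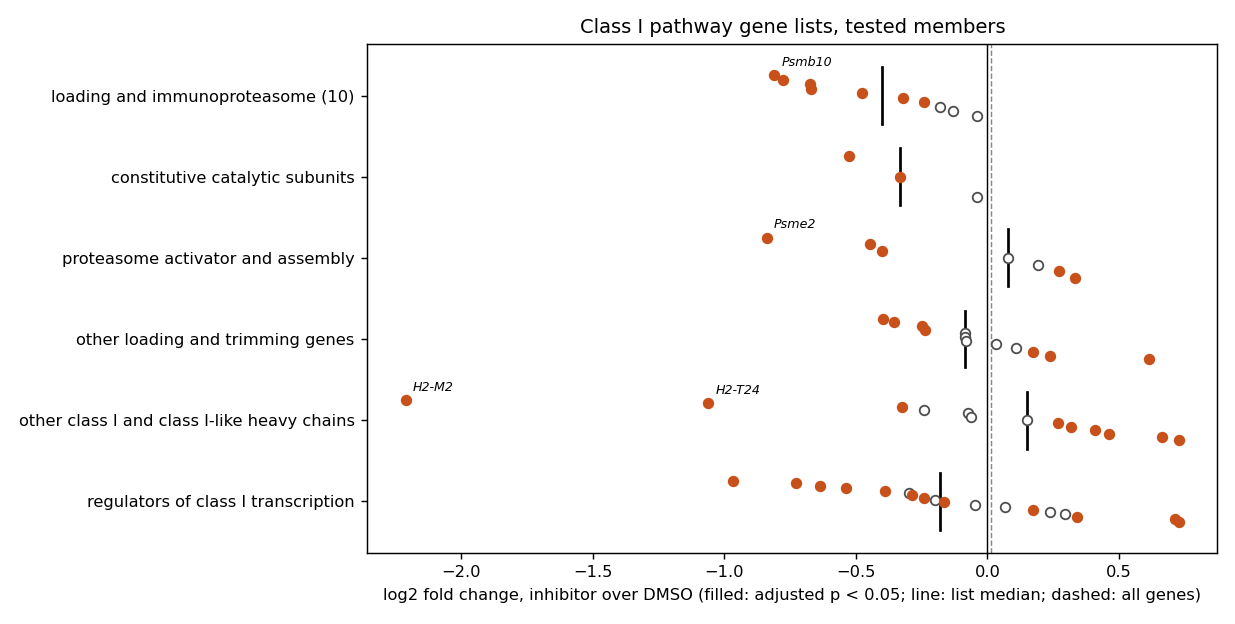
Log2 fold change, inhibitor over DMSO, of tested genes in 6 class I pathway lists; filled points passed adjusted p under 0.05, black lines are list medians and the dashed line is the median of all tested genes (0.01). The 10 genes have a median of -0.40 and no point above 0. The list of 3 standard catalytic subunits also has no point above 0 (median -0.33), while every list of 7 or more other genes has points on both sides.

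Among 18 regulators of class I transcription 8 fell and 4 rose (median -0.18), and with library totals 6 fell and 6 rose. Stat2, which carries type I interferon signals to the nucleus, fell 1.65-fold, from 131 ± 9.93 to 79.2 ± 9.001 CPM (SD, n = 3, edgeR log2 fold change -0.73, SE 0.088, adjusted p = 0.000241). Irf1, an activator of class I and immunoproteasome genes, fell by 0.29 (SE 0.060) on the log2 scale, from 126 ± 7.73 to 103 ± 5.52 CPM (SD, n = 3).

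Of the 3 RFX subunits, to which NLRC5 binds, 1 fell and 2 rose. Rfx5 fell 1.56-fold, from 22.7 ± 2.28 to 14.6 ± 0.803 CPM (log2 fold change -0.64, SE 0.092, adjusted p = 0.000646 by edgeR), while Rfxank, named after its value was seen, rose 1.64-fold, from 9.92 ± 1.58 to 16.3 ± 0.553 CPM (0.71, SE 0.116, adjusted p = 0.00122). Rfxap, also named after its value was seen, rose 1.26-fold, from 14.5 ± 1.34 to 18.3 ± 0.585 CPM (0.34, SE 0.086, adjusted p = 0.0112). Rfx5 and Rfxank overlap genes on the opposite strand, over 26.8% of the exon bases of Rfx5 and 33.8% of those of Rfxank. Atf1, of the CREB/ATF family, rose 1.66-fold from 46.3 ± 4.16 to 76.7 ± 6.67 CPM. With an adjusted p under 0.01 only 2 regulators rose.

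Markers of cell types moved in the same libraries. The numbers of markers called stand beside the 26.5% lower and 24.9% higher of all tested genes. The macrophage markers Csf1r, Adgre1 and Lyz2 were abundant, and of 8 macrophage markers 6 fell while Csf1r and Cd68 did not pass. For 1 of the 8 all inhibitor libraries were above all DMSO libraries. The summed level of the 8 was 11861 to 13535 CPM with DMSO and 7562 to 7640 CPM with the inhibitor. A single defining marker reached 215662 counts in a library, so it weighs heavily in this sum. Of 10 stromal markers 8 fell, with a summed level of 4841 to 5671 CPM under DMSO and 2076 to 2230 CPM with the inhibitor; of their defining genes Col1a1 and Dcn fell and Pdgfra did not pass (log2 fold change 0.08, SE 0.061). Of the 4 endothelial markers 3 were tested and 2 fell, at a summed 55.5 to 56.6 and 13.0 to 13.5 CPM, of which Vwf made up 51.1 ± 1.08 and 9.40 ± 0.386 CPM; of the defining genes Kdr fell, from 3.97 ± 0.423 to 2.57 ± 0.069 CPM, and Cdh5, near 1 CPM, did not pass. Of 6 dendritic cell markers 2 passed the filter on low counts and fell. All 6 together summed to 18.2 to 20.5 CPM with DMSO and 10.8 to 11.6 CPM with the inhibitor. T cell, B cell, NK cell and erythroid lists summed to at most 3.20 CPM in any library, with Cd3d and Ncr1 at 0 counts in all 6, and the neutrophil list to at most 8.97 CPM with Elane, Ngp and Ly6g at 0, 1 of its 3 tested genes having risen and 2 fallen. Class I genes are expressed by macrophages and by stromal and endothelial cells alike, and the part of these shifts in the falls of the 7 genes was not tested.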

How the data were processed

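The authors deposited 1 table of raw counts, a row for each Ensembl gene and a column for each of 6 libraries, without normalization. The tools named per the submitters' processing notes are edgeR, HISAT2 and StringTie 1.3.0, with mm10 as the build; for the counter, annotation release, multi-mapping rule and use of strand the answer is not given in the sources used here. Symbols were matched by identifier (478 of 34745 genes had none), and coordinates, exon bases and transcripts are those of GENCODE M21 of the same build. Promoters are from RefSeq and were found for 8 of the 10 genes; the last 30 bases of each window were checked to lie in a transcript of its gene.

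Groups come from the titles. Counts were tested in R 4.3.3 with edgeR 4.0.16 (quasi-likelihood, TMM, filterByExpr with a minimum count of 10, pretreatment as the only factor), which left 13815 genes, and p-values were adjusted over all of them. The SE was taken as the size of the log2 fold change divided by the root of its F statistic. CPM values were computed from the deposited counts and TMM factors. Ratios of counts within a library (0.5 added for the log2 scale) were compared between groups by exact permutation, two-sided. A count of 0 allows up to 3 counts, 0.116 to 0.166 CPM, for counting error only. Libraries of a group differed from each other beyond sampling noise (chi-square of 9.25 to 14.3 for each degree of freedom). The fit was tested on simulated data. Alternatives were DESeq2 1.42.0, its size factors, library totals, other filters, a stricter call (adjusted p under 0.01), a replicate block and the omission of every library in turn.

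The 10 genes, the lists and the tests were chosen with earlier results of these data known. Named outside the set are the standard catalytic subunits, Kat8, the 3 called genes of smallest p in each list, known partners of the 10 genes and the 3 genes of most similar profile; exceptions are marked. Some genes that this rule or a list names are not reported here.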

Additional observations from a re-analysis of the deposited data

How the results depend on the processing

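The count of 7 lower and 0 higher genes of the 10 was the same with DESeq2, its size factors and no filter. It was also the same with a mean of at least 5 CPM and an adjusted p under 0.01. With library totals 6 were lower and 0 higher, beside 2842 lower and 4888 higher of 13815 tested genes. Leaving libraries out in turn gave 7 to 8 lower. The titles give both groups the replicate numbers 1 to 3, but same-numbered libraries did not deviate together (r = -0.047, -0.018 and 0.098), and not every library correlated best with its own number. With the number as a replicate block 7 of the 10 were again lower, and 3215 genes were higher and 3510 lower over the table. At an adjusted p under 0.01, 2257 genes were higher, 1 loading and trimming gene rose and 2 regulators rose. With library totals 5 loading and trimming genes rose; leaving out libraries gave 1 to 3. For the other heavy chain genes leaving out libraries gave 3 to 5 lower. The log2 ratio of Tap1 to Tap2 (0.06) ranged from -0.039, without DMSO replicate 3, to 0.16; its groups overlapped, and the cause was not tested. Of 120 refits of single members 117 kept the call. With 3 libraries a group, no ratio could pass.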
